A study of Oryza sativa with 12 samples.

Results

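The interaction of storage temperature with the 4H label was examined in embryonic axes of rice seed (Oryza sativa, cultivar Nipponbare), measured on 12 Affymetrix Rice Genome Arrays. The interaction is the change from 0H to 4H in axes of seed stored at 40 °C minus the same change in axes of seed stored at 25 °C, so a value above 0 means that a transcript ended relatively higher at 4H after the warmer storage. All 12 arrays of the series entered it, 3 in each of 4 groups: 0H and 4H of seed kept at 25 °C, which the labels call control, and 0H and 4H of seed kept at 40 °C. Both sets of seed were first held for 3 days at 25 °C and 85% relative humidity, kept at their temperature at 85% for 14 days (protocol) or 15 days (description), and finally dried for 3 days at 32%. The labels do not define 0H and 4H, and they do not say whether the 3 replicates of a group came from separate seed lots, so the p-values measure the spread between these arrays, which may be technical. Of 57258 probe sets that are not controls, 17650 passed the filter on low signals, a log2 signal above 4 in at least 3 of the 12 arrays, and were tested.

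Warm, moist storage is used to speed up the ageing of seed. A dry embryo holds stored messenger RNA and proteins, and once it takes up water it resumes respiration, translates stored messages and begins to transcribe genes of its own. Small heat shock proteins, which hold damaged proteins in solution, and repair enzymes such as methionine sulfoxide reductases are known for their part in seed longevity, while expansins and sucrose synthases are known for their part in growth, by loosening cell walls and by opening sucrose to metabolism.

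The tissue label reads seed and the growth protocol names the embryonic axis. All 3 embryo markers were measured, and their summed linear signal lay between 9156 and 9980 at 0H and between 7423 and 8691 at 4H over both temperatures. Endosperm markers were measured as well, 7 of 9, with sums of 878.9 to 2055 at 25 °C 0H, 1176 to 2912 at 25 °C 4H, 2816 to 3069 at 40 °C 0H and 1758 to 2167 at 40 °C 4H. The aleurone and scutellum markers measured, 4 alpha-amylase genes, had sums of 571.6 to 642.4 at 25 °C 0H, 934.6 to 1414 at 25 °C 4H, 629.6 to 848.6 at 40 °C 0H and 556.6 to 685.7 at 40 °C 4H, and 3 of the 4 had an interaction called below 0. The part of these other tissues in the interaction was not tested. The 3′ minus 5′ signal of the Gapdh control, which grows as RNA breaks down or is copied incompletely, was 2.24 ± 0.17 and 2.34 ± 0.09 at 25 °C 0H and 4H and 3.66 ± 0.29 and 2.77 ± 0.20 at 40 °C 0H and 4H (log2, SD, n = 3). For Actin the 4 values were 2.44 ± 0.06, 2.97 ± 0.16, 3.33 ± 0.14 and 2.95 ± 0.15. Ubiquitin differed little, with −0.66 ± 0.02, −0.62 ± 0.05, −0.52 ± 0.04 and −0.60 ± 0.09. The poly-A spike-ins averaged 4.15 ± 0.58, 3.16 ± 0.69, 7.24 ± 2.29 and 4.94 ± 0.96 in the same order, and the high values at 40 °C 0H were those of replicates 1 and 2. Single arrays stood apart in other controls: 18S rRNA read 6.82 in replicate 3 of 25 °C 4H against 11.04 and 11.06, and 7.87 in replicate 3 of 40 °C 0H against 10.17 and 10.97. The hybridization spike-ins read 7.10 in replicate 3 of 25 °C 4H against 8.98 and 8.58. These controls thus differed between groups and between arrays of a group, and their part in the interaction was not tested. In bulk samples, fewer cells of a type and less RNA per cell cannot be told apart. Precision is limited by the number of arrays.

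The change from 0H to 4H differed between the temperatures for 11469 of 17650 probe sets (65.0%, limma, adjusted p under 0.05). Of these 4957 (28.1% of those tested) lay above 0 and 6512 (36.9%) below, and the median interaction over all probe sets was −0.12 on the log2 scale. In size, 5080 called probe sets (28.8%) exceeded 1, split evenly at 2548 above and 2532 below 0, and 996 (5.64%) exceeded 2, with 589 above and 407 below. The single 4H minus 0H differences of the 2 temperatures, 9 each, did not overlap in 10082 probe sets (57.1%). The 0H and 4H arrays weigh equally in the interaction, but the temperatures differed more among the 4H arrays. In 90.1% of the called probe sets the temperatures lay further apart at 4H than at 0H, and 9033 (78.8%) were called apart at 4H and not at 0H. Over all probe sets tested, 74.0% were called apart at 4H and 17.7% at 0H. These comparisons use the same arrays as the interaction, so the counts describe where the difference lay and are not separate evidence for it. Replicates 1 and 2 of 40 °C 0H held the high spike-in signals. Leaving out both leaves 1 array in that group, so its spread is taken from the other groups. That array, replicate 3, was itself low in 18S rRNA and had the highest Gapdh 3′ minus 5′ signal (3.98). Results given below without replicates 1 and 2 are a limited check for these reasons.

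From 0H to 4H, 81.9% of probe sets changed at 25 °C (39.9% rose and 42.0% fell) and 87.2% at 40 °C (41.0% rose and 46.3% fell). Storage at 40 °C went with a larger change more often than with a smaller one. Of the called probe sets, 7470 had changed from 0H to 4H at both temperatures in the same direction, and 5712 of these (76.5%) had the larger change at 40 °C. Among those that fell at both, 3201 fell further at 40 °C and 667 fell less, and among those that rose at both, 2511 rose further and 1091 rose less. Opposite directions, each called, were found in 978 probe sets (8.53% of the calls): 549 rose at 25 °C and fell at 40 °C, and 429 did the reverse. A change called at 1 temperature alone made up 2989 more, with 1019 that fell and 896 that rose at 40 °C, and 630 that rose and 444 that fell at 25 °C. The remaining 32 were called at neither temperature. The share with the larger change at 40 °C was between 74.1% and 80.8% under all 21 alternatives tried for the interaction.

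**Figure D1:**
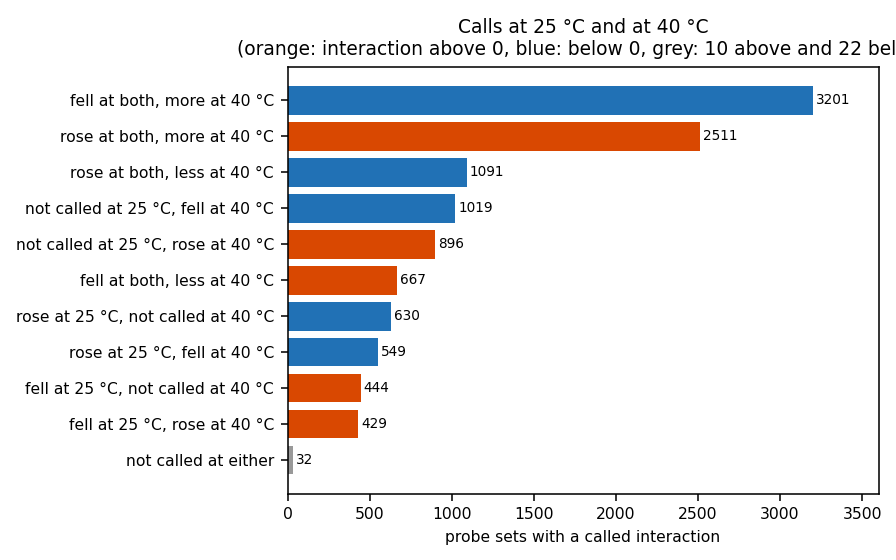
Number of probe sets with a called interaction (horizontal axis) in each combination of calls at 25 °C and 40 °C (rows). Falling further and rising further at 40 °C, with 3201 and 2511 probe sets, make the longest bars, and 978 probe sets changed in opposite directions.

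The sizes of the changes gave the same picture. The median absolute change was 0.87 at 25 °C and 1.19 at 40 °C, and 2738 probe sets changed by more than 2 in either direction at 25 °C against 4415 at 40 °C. Across the 17650 probe sets the changes at the 2 temperatures, which share no arrays, had a correlation of 0.83, a description in which probe sets are not independent. For the 1962 probe sets that were higher by more than 2 at 25 °C, the median share of that rise seen at 40 °C was 0.967 (quartiles 0.645 and 1.30), and for the 776 lower by more than 2 it was 0.961 (0.683 and 1.18). Chosen the other way, at 40 °C, 2661 higher probe sets had a median of 0.663 of their rise at 25 °C (0.448 and 0.888), and 1754 lower ones 0.655 (0.519 and 0.814). Probe sets chosen for a large change at 1 temperature tend to read smaller at the other, and the shares chosen at 25 °C stayed near 1 all the same. With a limit of 3 in place of 2 the shares chosen at 25 °C were 0.924 for rises and 0.754 for falls. The median interaction was lowest at high mean signals but did not fall steadily. It was −0.004 in 2429 probe sets under log2 4, −0.14 in 6993 between 4 and 6 and −0.09 in 5867 between 6 and 8. It was −0.22 in 1990 between 8 and 10 and −0.37 in 371 over 10, where 55.0% were called below 0 and 17.8% above.

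**Figure D2:**
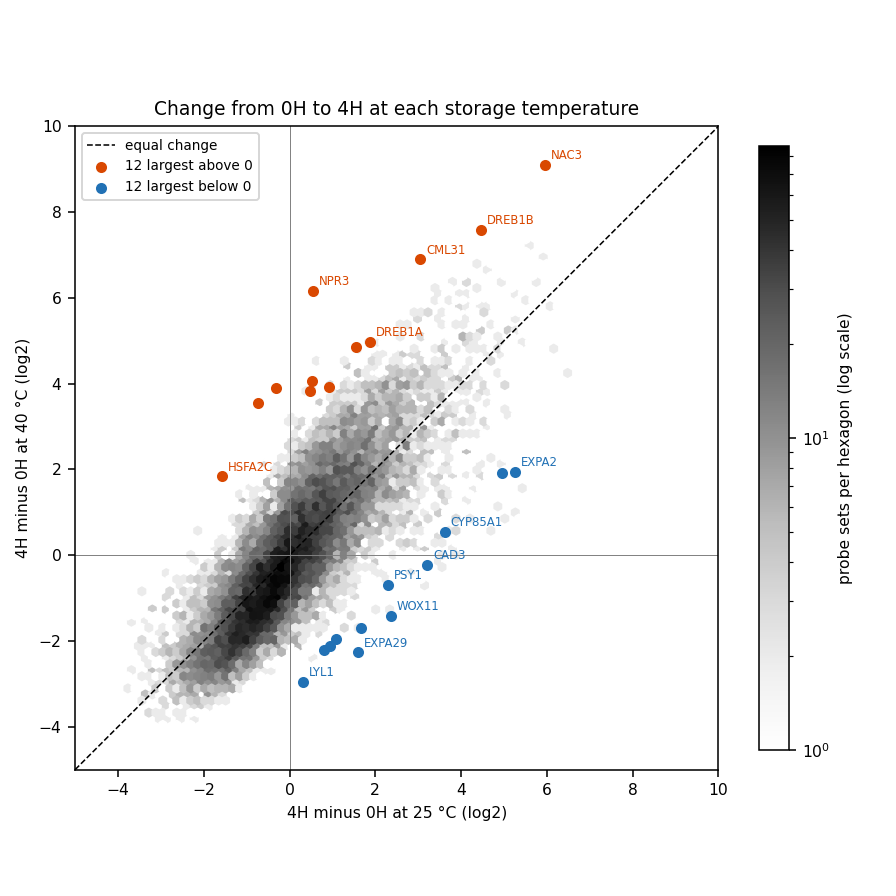
Change from 0H to 4H at 25 °C (horizontal axis, log2) and at 40 °C (vertical axis, log2) for 17650 probe sets, shown as a density. In colour are the 24 genes ranked largest among those with a short symbol that met the selection criteria, 13 of them labelled. The 12 genes above 0 lie over the dashed line of equal change and the 12 below 0 lie under it, and the density has a correlation of 0.83.

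The 12 named genes with the largest interactions above 0 all rose from 0H to 4H at 40 °C. At 25 °C 8 of them rose by less, 3 were not called and HSFA2C fell. These counts take in probe sets with signals below log2 4 at 25 °C, as in NPR3, where a small change may be background. NPR3, of the family of salicylic acid coreceptors, read 1.103, 0.85 and 0.79 at 25 °C 0H, 0.98, 1.67 and 1.72 at 25 °C 4H, 0.49, 0.71 and 0.79 at 40 °C 0H and 7.11, 6.61 and 6.79 at 40 °C 4H. It was above log2 4 in the 3 arrays of 40 °C 4H and in no other, so it entered the test through that group alone. Its interaction was 5.62, or 2.84 with values below log2 4 set to 4, and for that reason no p-value is given. The other 3 probe sets of NPR3 gave 4.05, 3.27 and 1.95. Those with 4.05 and 3.27 also had a group mean above log2 4 at 40 °C 4H alone. DREB2B, a transcription factor of drought and heat responses, read 5.84, 5.44 and 5.02 and then 6.27, 6.48 and 6.32 at 25 °C, and 5.05, 5.03 and 5.17 and then 9.18, 8.92 and 8.95 at 40 °C. It rose by 0.92 at 25 °C and by 3.93 at 40 °C, an interaction of 3.01 (SE 0.22, adjusted p = 1.14e-07), and no array of 40 °C 4H overlapped with any other group. DREB1A and DREB1B, relatives known from cold responses, both rose more at 40 °C. DREB1A rose by 1.88 at 25 °C and by 4.97 at 40 °C and DREB1B rose by 4.47 at 25 °C and by 7.59 at 40 °C, with interactions of 3.09 and 3.11.

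CML31, a calmodulin-like calcium sensor, went from 2.75, 1.94 and 2.27 to 5.22, 5.21 and 5.67 at 25 °C and from 1.88, 1.95 and 1.73 to 8.95, 8.78 and 8.51 at 40 °C. Both temperatures showed the rise, and the 4H groups did not overlap (interaction 3.85, SE 0.28, adjusted p = 1.01e-07). The phosphatase OsPP2C32 read 5.40, 4.83 and 4.35 at 25 °C 0H and 5.25, 5.36 and 5.55 at 25 °C 4H, against 3.97, 3.67 and 4.19 and 8.12, 7.86 and 8.07 at 40 °C. Its groups overlapped at 25 °C and stood far apart at 40 °C, with an interaction of 3.55 (SE 0.30, adjusted p = 3.09e-07). NAC3, a NAC transcription factor, rose steeply at both temperatures, from 5.70, 3.27 and 2.19 to 9.67, 9.78 and 9.62 at 25 °C and from 1.84, 1.89 and 1.70 to 10.94, 10.82 and 10.98 at 40 °C. Replicate 1 of 25 °C 0H stood apart from the others of its group, and the interaction was 3.13 (SE 0.79, adjusted p = 0.00305), or 1.79 with values below log2 4 set to 4. The formin FH16, an actin-nucleating protein, rose by 1.54 at 25 °C and by 4.85 at 40 °C (interaction 3.31, SE 0.22, adjusted p = 6.25e-08). KIN8B, a kinesin motor, rose by 3.82 at 40 °C and differed by 0.47 at 25 °C, which was not called. Its interaction was 3.35, or 1.72 with values below log2 4 set to 4. No p-value is given for KIN8B, since signals below log2 4 made up much of the difference.

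For 3 of these genes the probe sets have to be read together. In the thioredoxin-family gene OsTrx18, 1 probe set with low signals had an interaction of 4.29, or 1.99 with values below log2 4 set to 4. No p-value is given for this probe set, since signals below log2 4 made up much of the difference. The other 2, whose group means lay above log2 6, gave 2.46 and 1.76. HSFA2D, a heat stress transcription factor, gave 4.23, or 2.04 with values below log2 4 set to 4, and its p-value is left out for the same reason. Its second probe set, with higher signals, gave 1.61. HSFA2C, whose locus also carries the name ARD1, had 2 probe sets in opposite directions. The first read 5.92, 5.90 and 5.53 and then 4.15, 3.96 and 4.49 at 25 °C, and 5.44, 5.11 and 5.05 and then 7.22, 6.95 and 6.95 at 40 °C, so it fell by 1.58 at 25 °C and rose by 1.84 at 40 °C (interaction 3.42, SE 0.22, adjusted p = 5.09e-08). The second had an interaction of −1.51, with a rise from a mean of 3.68 to 5.74 at 25 °C and means of 3.49 and 4.03 at 40 °C. No direction is given for the HSFA2C locus as a whole.

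The 12 genes largest below 0 were ranked among short-symbol genes with a size of at least 1 with low values set to 4. Of these, by the probe set ranked, 11 rose at 25 °C and LYL1 was not called there. At 40 °C 8 fell, CAD3 was not called, and EXPA2, SUS1 and CYP85A1 rose by less. EXPA29, an expansin, read 7.70, 7.54 and 7.67 at 25 °C 0H and 9.35, 9.28 and 9.04 at 25 °C 4H, and 7.75, 7.75 and 7.90 at 40 °C 0H and 5.74, 5.33 and 5.53 at 40 °C 4H. It rose by 1.59 at 25 °C and fell by 2.27 at 40 °C, all arrays lay above log2 4, and the interaction was −3.85 (SE 0.15, adjusted p = 2.04e-09). WOX11, a homeobox gene that drives crown root formation, read 5.90, 5.72 and 5.93 and then 8.23, 8.25 and 8.16 at 25 °C, and 6.01, 6.07 and 5.86 and then 4.73, 4.56 and 4.45 at 40 °C. Its groups at 0H overlapped and those at 4H lay more than 3 apart on the log2 scale, with an interaction of −3.77 (SE 0.14, adjusted p = 2.04e-09). SUS1, a sucrose synthase, rose from 5.38, 5.09 and 4.48 to 10.34, 10.20 and 9.28 at 25 °C and from 4.80, 4.66 and 4.78 to 6.86, 6.63 and 6.50 at 40 °C (interaction −3.04, SE 0.35, adjusted p = 4.16e-06). A second probe set of SUS1 gave −2.77. CYP85A1, an oxidase of brassinosteroid synthesis, read 4.56, 5.01 and 4.89 and 8.54, 8.78 and 8.01 at 25 °C 0H and 4H, and 4.79, 5.03 and 4.58 and 5.38, 5.57 and 5.09 at 40 °C. Its rise of 3.62 at 25 °C stood against 0.55 at 40 °C (interaction −3.07, SE 0.27, adjusted p = 4.78e-07).

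PSY1, a phytoene synthase and the entry enzyme of carotenoid synthesis, read 4.44, 5.002 and 4.65 at 25 °C 0H, 7.15, 6.93 and 6.93 at 25 °C 4H, 5.21, 4.86 and 4.98 at 40 °C 0H and 4.14, 4.33 and 4.49 at 40 °C 4H. It rose by 2.30 at 25 °C and fell by 0.70 at 40 °C, an interaction of −3.001 (SE 0.21, adjusted p = 9.75e-08), and its other probe set gave −2.50. LYL1 differed by 0.30 at 25 °C, which was not called, with 6.38, 6.22 and 6.02 at 0H and 6.71, 6.65 and 6.17 at 4H, and went from 6.56, 6.49 and 6.19 to 3.45, 3.45 and 3.46 at 40 °C, where all 3 arrays of 4H lay below log2 4 (interaction −3.26, SE 0.21, adjusted p = 4.56e-08). In the lignin and phenylpropanoid pathway, PAL, a phenylalanine ammonia-lyase, rose by 0.81 at 25 °C and fell by 2.22 at 40 °C (interaction −3.03). Its other probe sets differed by only 0.19 and 0.16 at 25 °C and by −1.87 and −1.93 at 40 °C (interactions −2.06 and −2.09). The fall at 40 °C was thus seen in all of them, and the rise of 0.81 in the ranked probe set alone. The cinnamyl alcohol dehydrogenase CAD3 rose by 3.21 at 25 °C and differed by −0.23 at 40 °C, which was not called (interaction −3.44, or −1.44 with values below log2 4 set to 4). Both EXPA2 and EXPA6 are expansins: EXPA2 rose by 5.26 at 25 °C and by 1.93 at 40 °C (interaction −3.33), and EXPA6 rose by 0.95 at 25 °C and fell by 2.11 at 40 °C (interaction −3.06, or −1.68 with values below log2 4 set to 4). YAB4, a YABBY transcription factor, rose by 1.68 at 25 °C and fell by 1.69 at 40 °C (interaction −3.37), and the cytokinin oxidase CKX11 rose by 1.08 at 25 °C and fell by 1.95 at 40 °C (interaction −3.03, or −1.61 with values below log2 4 set to 4).

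**Figure D3:**
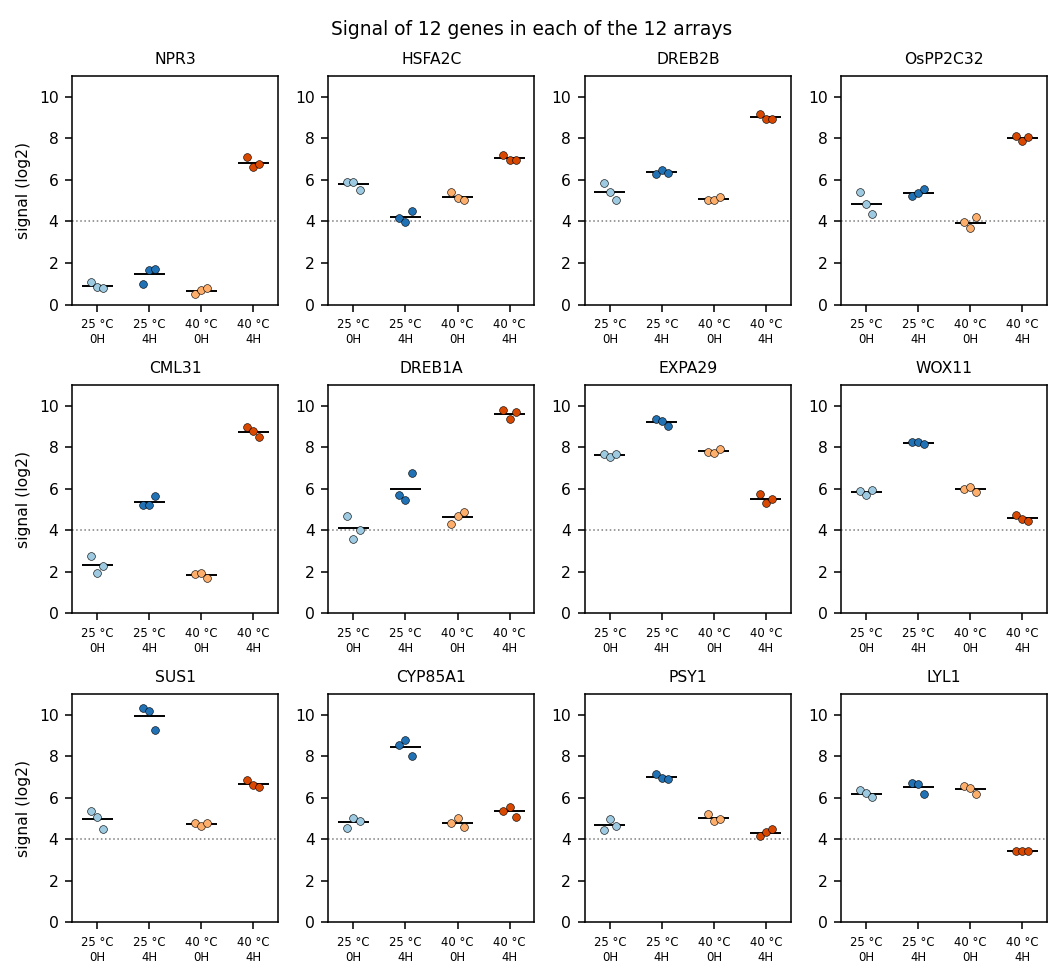
Log2 signal (vertical axis) of 12 of the 24 genes in each array, by temperature and label (horizontal axis); points are single arrays, bars are group means of 3, and the dotted line is log2 4. In NPR3 the 40 °C 4H arrays alone lie above log2 4, whereas EXPA29, WOX11 and PSY1 rise from 0H to 4H at 25 °C and fall at 40 °C.

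Each gene of the lists described next is represented by its probe set with the highest mean signal. Over all 11516 genes tested, 25.0% were called above 0 and 42.9% below, 67.9% in all, and the median interaction was −0.25, from median changes of −0.04 at 25 °C and −0.24 at 40 °C. Each list is read against these values, and it holds only genes whose symbols matched, not a whole family. Where a list had 0 calls on a side in limma, 0 of its genes reached an unadjusted p under 0.05 on that side either. With 65.0% of probe sets called, the adjusted and unadjusted thresholds lie close together, so this adds little.

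Most small heat shock genes and heat stress factors tested were called above 0. Of the small heat shock proteins, 18 of 19 matched genes passed the filter, 14 were called above 0 and 2 below 0, and the median was 1.08. At 25 °C 16 of the 18 fell from 0H to 4H and at 40 °C 12 fell, with median changes of −1.40 at 25 °C and −0.53 at 40 °C; 2 rose at each temperature. HSP26.2 read 9.24, 9.23 and 9.02 at 25 °C 0H and 7.32, 7.34 and 7.45 at 25 °C 4H, and 9.34, 9.32 and 9.35 at 40 °C 0H and 8.79, 8.74 and 8.69 at 40 °C 4H. Its fall was 1.80 at 25 °C and 0.60 at 40 °C, an interaction of 1.2003 (SE 0.10, adjusted p = 3.37e-07). HSP23.2 and HSP24.1 also fell less at 40 °C (interactions 1.32 and 1.12). HSP17.9B instead rose by 3.39 at 25 °C and by 4.55 at 40 °C (interaction 1.16). HSP18.8 contrasted with the list: it rose by 3.55 at 25 °C and by 1.96 at 40 °C (interaction −1.59).

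Among the heat stress transcription factors, which switch on heat shock genes, 19 of 20 matched genes passed the filter, 11 were called above 0 and 2 below 0, and the median was 0.998. HSFA9, known in sunflower as a regulator of seed heat shock proteins, read 6.86, 6.88 and 6.81 and then 8.26, 8.26 and 8.49 at 25 °C, and 6.46, 6.38 and 6.37 and then 10.05, 9.93 and 10.05 at 40 °C. The 4 groups did not overlap with each other, and the interaction was 2.11 (SE 0.11, adjusted p = 1.17e-08). HSFA4B rose by 1.13 at 25 °C and by 3.80 at 40 °C (interaction 2.67), and HSFA2E fell by 0.75 at 25 °C and rose by 0.75 at 40 °C (interaction 1.501). HSFB4B ran the other way: it rose by 1.47 at 25 °C and differed by 0.11 at 40 °C, which was not called (interaction −1.37). At 25 °C 6 of the 19 rose and 11 fell, and at 40 °C 9 rose and 7 fell. HSFA2D is counted here by the probe set with the smaller interaction. HSFA2C is 1 of the 11 by its first probe set alone, which the second contradicts. Of the larger chaperones, 15 of 18 matched genes passed the filter, 8 were called above 0 and 4 below 0, and the median was 0.36. CLPD1, a Clp ATPase, rose by 1.34 at 25 °C and by 4.08 at 40 °C (interaction 2.74), and CLPB-C, a disaggregase of the ClpB family, fell by 1.099 at 25 °C and differed by 0.11 at 40 °C, which was not called (interaction 1.21). The J-domain proteins DJA6 and DJC79 had interactions of −1.55 and −1.198. Without replicates 1 and 2 of 40 °C 0H, 5 chaperones were called above 0, and over all probe sets of each gene their median was −0.01.

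**Figure D4:**
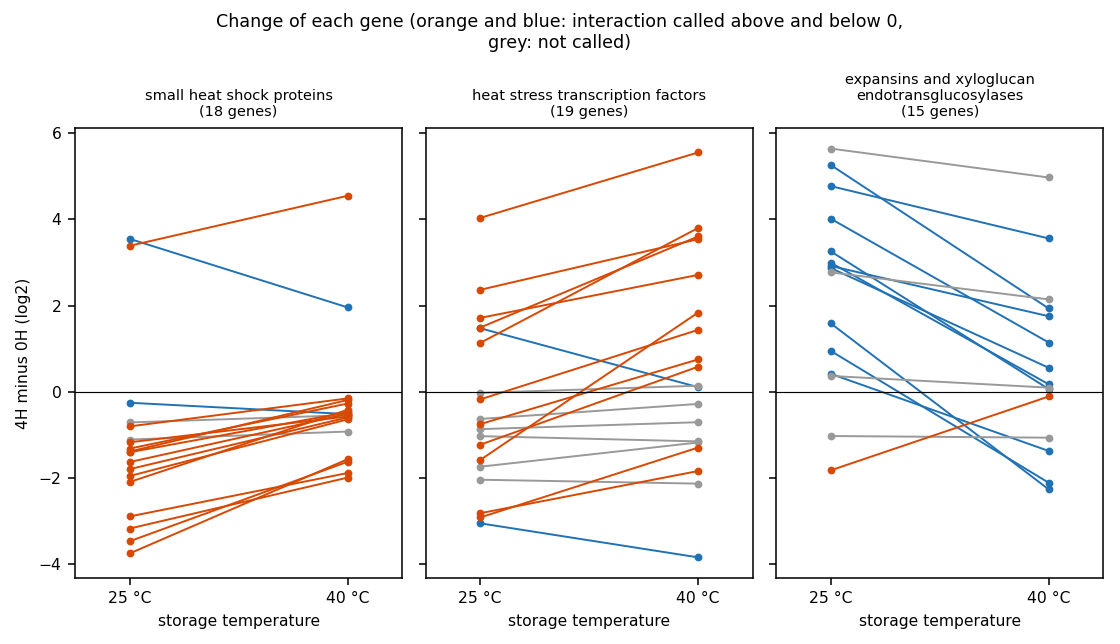
Change from 0H to 4H (vertical axis, log2) at 25 °C and 40 °C (horizontal axis) for each gene tested of 3 lists, 1 line per gene. Lines rise to the right in 14 of 18 small heat shock genes and 11 of 19 heat stress factors with a called interaction, and they drop in 10 of 15 expansins and xyloglucan endotransglucosylases.

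Stress transcription factors lay mostly above 0. All 4 NAC factors and all 5 WRKY factors tested were called above 0, with medians of 1.54 and 1.05; the lists matched 8 and 6 genes. WRKY24 read 3.44, 2.55 and 3.22 at 25 °C 0H and 6.41, 6.70 and 6.27 at 25 °C 4H, against 2.38, 2.26 and 1.89 and 8.40, 8.33 and 8.33 at 40 °C (interaction 2.79, SE 0.28, adjusted p = 1.57e-06). WRKY76, a regulator of blast and cold responses in rice, rose by 3.42 at 25 °C and by 6.09 at 40 °C (interaction 2.67), and NAC5 rose by 1.85 at 40 °C and differed by 0.20 at 25 °C, which was not called (interaction 1.65). Of the DREB and ERF factors, 7 of 12 matched genes passed the filter, 4 were called above 0 and 2 below 0, and the median was 1.09; AP2-5 was one of those below (interaction −1.26), and the count below 0 was 1 without replicate 1 or 2 of 25 °C 4H or replicate 1 of 40 °C 4H. The DREB and ERF median was 3.01 with the filter at log2 6, which also left 1 below 0, and 0.11 over all probe sets of each gene. For the stress-associated A20/AN1 zinc finger proteins, 11 of 13 matched genes passed the filter, 6 were called above 0 and 1 below 0, and the median was 0.71, or 1.22 over all probe sets of each gene. SAP7 fell by 0.49 at 25 °C and rose by 1.58 at 40 °C (interaction 2.07), SAP5 and SAP9 had interactions of 1.38 and 1.28, and SAP8 lay below 0 (interaction −0.78), the only one called there, or 1 of 2 without replicate 3 of 40 °C 4H.

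Calcium signalling was divided. Of the calcium-dependent and CBL-interacting kinases, 34 of 45 matched genes passed the filter, 15 were called above 0 and 8 below 0 (5 with the filter at log2 6), and the median was 0.27. CPK4 rose by 0.91 at 25 °C and by 3.58 at 40 °C (interaction 2.67), CIPK1 rose by 2.87 at 25 °C and by 4.23 at 40 °C (interaction 1.37), and CIPK23, which in Arabidopsis acts on potassium and nitrate transport, rose by 0.98 at 25 °C and by 2.53 at 40 °C (interaction 1.55). Of the calmodulin-like proteins, 23 of 33 matched genes passed the filter, 10 were called above 0 and 6 below 0, and the median was 0.14, with interactions of 1.83 for CML15, 1.73 for CML14 and −1.06 for the calmodulin CAM3. That median changed sign among the alternatives (−0.03 to 0.35).

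Hormone genes are given by pathway, from jasmonate and abscisic acid to auxin, gibberellin, brassinosteroid and ethylene. In the lipoxygenase and jasmonate pathway, 21 of 37 matched genes passed the filter, 14 were called above 0 and 6 below 0, and the median was 0.48. JAR1, which joins jasmonate to isoleucine and so makes the active hormone, read 5.55, 5.58 and 5.05 and then 6.92, 7.37 and 6.98 at 25 °C, and 4.29, 4.32 and 4.32 and then 8.67, 8.50 and 8.53 at 40 °C (interaction 2.55, SE 0.20, adjusted p = 1.82e-07). JAZ10, a repressor of the pathway that jasmonate removes, rose by 3.20 at 25 °C and by 4.42 at 40 °C (interaction 1.23). COI1B, a jasmonate receptor subunit, had an interaction of 0.82, and the repressor JAZ3 of −1.04. Without replicates 1 and 2 of 40 °C 0H, JAZ3 was at −0.75 and not called (adjusted p = 0.0552). OPR5, an oxophytodienoate reductase, had an interaction of 1.62 (0.07 with values below log2 4 set to 4), and with those low values raised it was not called (adjusted p = 0.634).

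Among abscisic acid receptors, kinases and phosphatases, 17 of 17 matched genes passed the filter, 6 were called above 0 and 2 below 0, and the median was 0.17. The receptor gene PYL11 read 6.97, 6.92 and 6.89 and 8.20, 8.34 and 8.59 at 25 °C 0H and 4H, and 6.55, 6.41 and 6.34 and 10.01, 10.01 and 10.13 at 40 °C (interaction 2.17, SE 0.13, adjusted p = 3.29e-08). The kinase SAPK5 rose by 3.18 at 25 °C and by 5.32 at 40 °C (interaction 2.14), and SAPK9 fell by 2.20 at 25 °C and by 1.08 at 40 °C (interaction 1.12). The kinase gene sapk2 fell by 0.18 at 25 °C and rose by 0.90 at 40 °C (interaction 1.07). Without replicate 3 of 40 °C 0H, 1 gene of the list was called below 0. Of the ABC transporters, 7 of 12 matched genes passed the filter, 3 were called above 0 and 0 below 0, and the median was 0.28, or 1 below 0 without replicate 3 of 25 °C 4H or replicate 2 of 40 °C 0H; ABCG37 rose by 0.67 at 25 °C and by 3.60 at 40 °C (interaction 2.93) and ABCG36 rose by 2.87 at 25 °C and by 4.64 at 40 °C (interaction 1.78).

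Auxin genes lay more often below 0, and gibberellin genes on both sides. Of the auxin genes, 39 of 65 matched genes passed the filter, 6 were called above 0 (3 with the filter at log2 6) and 23 below 0, and the median was −0.52. The response factor gene ARF15 fell by 1.72 at 40 °C and differed by −0.04 at 25 °C, which was not called (interaction −1.68), the repressor gene IAA3 fell by 1.01 at 25 °C and by 2.66 at 40 °C (interaction −1.65), and IAA20 contrasted with the list (interaction 1.53). IAA5 and ARF10 both rose at 25 °C and fell at 40 °C (interactions −1.25 and −1.24). For gibberellin genes, 8 of 19 matched genes passed the filter, 2 were called above 0 and 3 below 0, and the median was −0.42. Their receptor gene GID1 rose by 0.66 at 25 °C and fell by 0.70 at 40 °C (interaction −1.36), while GAMYB, an activator of alpha-amylase genes in cereal aleurone, rose by 0.81 at 25 °C and by 1.76 at 40 °C (interaction 0.95). SLR1, the DELLA repressor of the pathway, rose by 1.24 at 25 °C and differed by 0.23 at 40 °C, which was not called (interaction −1.01). The count below 0 was 1 without replicates 1 and 2 of 40 °C 0H, where SLR1 was at −0.76 and not called (adjusted p = 0.0808). The median was 0.35 with the filter at log2 6 and 0.19 with values below log2 4 set to 4. CYP90A4, another gene of brassinosteroid synthesis, rose by 1.14 at 25 °C and differed by −0.21 at 40 °C, which was not called (interaction −1.35). EIN2, the central membrane protein of ethylene signalling, fell by 1.28 at 40 °C and differed by 0.04 at 25 °C, which was not called (interaction −1.32), whereas the ethylene receptor gene ERS1 had an interaction of 0.54; of 6 ethylene genes tested, of 11 matched, 1 was called above and 2 below 0, or 2 above without replicate 2 of 25 °C 0H and 1 below with the filter at log2 6.

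Most cell wall loosening genes tested were called below 0. Of the expansins and xyloglucan endotransglucosylases, 15 of 30 matched genes passed the filter, 1 was called above 0 and 10 below 0, and the median was −1.79. At 25 °C 12 rose, at 40 °C 7, and the median changes were 2.87 at 25 °C and 0.17 at 40 °C. With the filter at log2 6 the count below 0 was 6 and the median −1.19, and with values below log2 4 set to 4 the median was −1.17. EXPB6 read 5.18, 5.02 and 4.95 at 25 °C 0H and 8.17, 8.27 and 7.70 at 25 °C 4H, and 5.16, 5.08 and 4.61 and 5.12, 5.13 and 5.12 at 40 °C, so that the 40 °C 4H arrays lay within the range of 40 °C 0H (interaction −2.82, SE 0.22, adjusted p = 1.82e-07). EXPB3 had an interaction of −3.20 (−0.48 with values below log2 4 set to 4) and EXPA10 of −1.79. EXLA2, an expansin-like gene, was the 1 called above 0: it fell by 1.82 at 25 °C and differed by −0.11 at 40 °C, which was not called (interaction 1.71). Cellulose synthases were mixed, with 4 above and 6 below 0 of 15 tested and 29 matched, among them CESA5 with an interaction of 0.90 and the cellulose synthase-like CSLA7 with −1.12 (−0.72 with values below log2 4 set to 4). Of the aquaporins, membrane water channels, 10 of 25 matched genes passed the filter, 0 were called above 0 and 8 below 0, and the median was −0.68; PIP2-1 fell by 0.58 at 25 °C and by 1.94 at 40 °C (interaction −1.36), and TIP2-2 fell by 0.82 at 25 °C and by 2.26 at 40 °C (interaction −1.44). Of 14 tubulins and actins tested, of 15 matched, 7 were called below 0 and 2 above, with interactions of −1.31 for ACT3, −1.61 for TUBB5 and 0.83 for TUBB7.

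Genes of sucrose cleavage, glycolysis and fermentation lay mostly below 0. SUS3, a sucrose synthase, read 5.63, 5.75 and 5.62 at 25 °C 0H, 10.76, 10.67 and 10.26 at 25 °C 4H, 5.81, 6.13 and 5.74 at 40 °C 0H and 8.05, 8.08 and 7.95 at 40 °C 4H (interaction −2.77, SE 0.17, adjusted p = 4.10e-08). RSUS2, of the same family, rose by 5.18 at 25 °C and by 2.20 at 40 °C (interaction −2.98), whereas the neutral invertase NIN1 rose by 0.22 at 25 °C and by 1.02 at 40 °C (interaction 0.81). Of the 7 sucrose synthases and invertases tested (13 matched) 4 were called below and 2 above 0. In glycolysis and ethanol fermentation, 18 of 24 matched genes passed the filter, 1 was called above 0 and 14 below 0, and the median was −0.88. Median changes of these genes were 0.54 at 25 °C and −0.24 at 40 °C. Enolase (Eno1) rose by 1.095 at 25 °C and differed by 0.12 at 40 °C, which was not called (interaction −0.98), pyruvate decarboxylase (PDC2) rose by 1.60 at 25 °C and by 0.72 at 40 °C (interaction −0.88), and the glyceraldehyde-3-phosphate dehydrogenase GAPC1 fell by 0.47 at 25 °C and by 1.68 at 40 °C (interaction −1.21). The hexokinase HXK5 was called above 0 (interaction 0.59).

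Both nonsymbiotic hemoglobins, oxygen-binding proteins known from low-oxygen responses, were called below 0. NSHB1 rose from 1.96, 2.12 and 1.92 to 9.96, 10.08 and 10.23 at 25 °C and from 1.84, 2.05 and 2.0004 to 7.47, 7.62 and 7.52 at 40 °C. The 0H groups overlapped below log2 4 and the 4H groups lay apart (interaction −2.51, SE 0.16, adjusted p = 3.61e-08). NSHB2 rose by 8.30 at 25 °C and by 5.70 at 40 °C (interaction −2.60). All 3 genes tested of the respiratory chain were called, 2 above 0, or 1 with the filter at log2 6. AOX1a, the alternative oxidase, rose by 2.66 at 25 °C and by 3.67 at 40 °C (interaction 1.01), the cytochrome b gene cob fell by 3.60 at 25 °C and by 1.33 at 40 °C (interaction 2.27), and COX5c, a cytochrome oxidase subunit, fell by 0.51 at 40 °C and differed by −0.09 at 25 °C, which was not called (interaction −0.42).

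No gene of the ribosome, translation factor or proteasome lists was called above 0. The lists were not matched for signal. Of all probe sets with a mean over log2 10, 55.0% were called below 0 and 17.8% above, with a median interaction of −0.37. Of the cytosolic ribosomal proteins, 21 of 22 matched genes passed the filter, 0 were called above 0 and 20 below 0, and the median was −0.72. Their median changes were −0.24 at 25 °C and −0.97 at 40 °C. RPS4 read 10.69, 10.69 and 10.71 and 10.38, 10.30 and 10.56 at 25 °C 0H and 4H, and 10.62, 10.61 and 10.66 and 9.26, 9.40 and 9.32 at 40 °C, with the 40 °C 4H arrays below all others (interaction −1.02, SE 0.10, adjusted p = 9.33e-07). RPS10-1 and RPL5A had interactions of −1.25 and −0.83. Among translation factors 8 of 8 matched genes passed the filter, 0 were called above 0 and 6 below 0, and the median was −0.42, with an interaction of −0.62 for the helicase subunit eIF-4A-1; without replicate 1 of 40 °C 4H, 1 was called above 0. Of the proteasome subunits, 19 of 19 matched genes passed the filter, 0 were called above 0 and 15 below 0, and the median was −0.56. RPN1B, a subunit of the regulatory particle, fell by 0.56 at 25 °C and by 1.85 at 40 °C (interaction −1.29), and the core subunit PBC1 fell by 1.203 at 40 °C and differed by 0.01 at 25 °C, which was not called (interaction −1.21).

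Protein repair and disulfide formation genes had 0 calls above 0. All 6 methionine sulfoxide reductases, repair enzymes for oxidised methionine, were called below 0, with a median of −0.85. MSRA2-1 read 6.68, 6.60 and 6.79 and then 6.71, 6.91 and 6.78 at 25 °C, and 6.90, 6.94 and 6.96 and then 5.02, 5.21 and 5.13 at 40 °C. At 25 °C the groups overlapped and at 40 °C every 4H array lay below every 0H array (interaction −1.93, SE 0.13, adjusted p = 5.19e-08). MSRB1 rose by 0.55 at 25 °C and fell by 0.99 at 40 °C (interaction −1.54). MSRB3 had an interaction of −1.04 (−0.37 with values below log2 4 set to 4), at which it was not called (adjusted p = 0.0618). Of the protein disulfide isomerases, which help secreted proteins to fold, 9 of 11 matched genes passed the filter, 0 were called above 0 and 7 below 0, and the median was −0.85; PDIL5-1 fell by 0.89 at 25 °C and by 2.17 at 40 °C (interaction −1.28).

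Antioxidant and DNA repair genes were mostly lower at 4H than at 0H. More of their calls lay below 0 than above, which also held over all genes tested (42.9% below and 25.0% above). Of the antioxidant enzymes, 18 of 20 matched genes passed the filter, 1 was called above 0 and 10 below 0, and the median was −0.39, and 13 fell at each temperature. The ascorbate peroxidase APX6 fell by 1.14 at 25 °C and by 2.54 at 40 °C (interaction −1.40), the peroxiredoxin bas1 fell by 1.34 at 25 °C and by 2.71 at 40 °C (interaction −1.37), and the monodehydroascorbate reductase MDHAR2 was the 1 called above 0 (interaction 0.89). Of the DNA repair genes, 12 of 13 matched genes passed the filter, 1 was called above 0 and 7 below 0, and the median was −0.53. At 25 °C 9 fell and at 40 °C 11 fell, and 4 were below 0 with the filter at log2 6; the median was −0.35 with values below log2 4 set to 4. KU80, of the end-joining complex, fell by 0.95 at 40 °C and differed by 0.15 at 25 °C, which was not called (interaction −1.103), and the scaffold gene xrcc1 fell by 0.77 at 25 °C and by 2.51 at 40 °C (interaction −1.74, or −1.07 with values below log2 4 set to 4). The flap endonuclease FEN-1a had an interaction of −0.87 (0.41 with values below log2 4 set to 4), a reversal that was itself called (adjusted p = 0.0168), and MSH5, a meiotic MutS relative, was above 0 (interaction 0.76). The single call above 0 became 3 with low values set to 4, and 2 without replicate 2 of 25 °C 4H, replicate 3 of 40 °C 4H or replicate 2 of 40 °C 0H. Late embryogenesis abundant proteins, which protect dry cells, had small values: 8 of 8 matched genes passed the filter, 0 were called above 0 and 3 below 0, and the median was −0.17. All 8 fell at both temperatures. LEA3-1 had an interaction of −0.44; the count below 0 was 1 without replicate 2 of 25 °C 0H or replicate 3 of 40 °C 4H, and RAB16D, with an interaction of −0.50, was at −0.29 and not called (adjusted p = 0.0600) without replicate 3 of 25 °C 4H.

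Storage protein and starch genes had 0 calls above 0, and the number of storage calls depended on single arrays. Of the seed storage proteins, 9 of 11 matched genes passed the filter, 0 were called above 0 and 8 below 0, and the median was −1.22. RA14, a seed albumin, read 8.65, 8.99 and 9.87 at 25 °C 0H, 9.13, 9.72 and 10.52 at 25 °C 4H, 10.63, 10.53 and 10.66 at 40 °C 0H and 9.90, 9.81 and 10.33 at 40 °C 4H (interaction −1.22, SE 0.43, adjusted p = 0.0231). The groups at 25 °C overlapped, with replicates up to 1.39 apart at 4H. RA14 was not called without replicate 1 or 2 of 25 °C 0H, replicate 2 of 40 °C 4H, or replicates 1 and 2 of 40 °C 0H together (adjusted p from 0.0529 to 0.0821). The count of storage genes below 0 was 2 without replicate 1 of 25 °C 0H, 3 without replicate 2 of that group, 4 without replicate 3 of 25 °C 4H, replicate 1 or 2 of 40 °C 4H or replicate 3 of 40 °C 0H, 5 without replicate 3 of 40 °C 4H, with the filter at log2 6 or with no variance trend, and 2 without replicates 1 and 2 of 40 °C 0H. Of the starch synthesis genes, 7 of 7 matched genes passed the filter, 0 were called above 0 and 5 below 0, and the median was −0.62, with an interaction for GBSS1, the granule-bound synthase, of −1.53; 1 was called without replicates 1 and 2 of 40 °C 0H and 3 with the filter at log2 6. Alpha-amylase and starch breakdown genes gave 4 calls below 0 and 0 above among 7 tested of 8 matched. AMY1.1 rose by 5.83 at 25 °C and by 4.33 at 40 °C (interaction −1.499), and AMY1.4 fell by 1.25 at 25 °C and by 2.76 at 40 °C (interaction −1.504). AMY1.1 to AMY1.4 are also the aleurone and scutellum markers, whose sums are given above, so those sums are no separate measure. All 7 endosperm markers tested belong to these lists, 6 to the storage proteins and GBSS1 to starch synthesis, and 6 were called below 0, or 1 to 3 of them without any 1 of the same 7 arrays; their summed level was highest at 40 °C 0H. The part of endosperm RNA in these lists was not tested.

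**Figure D5:**
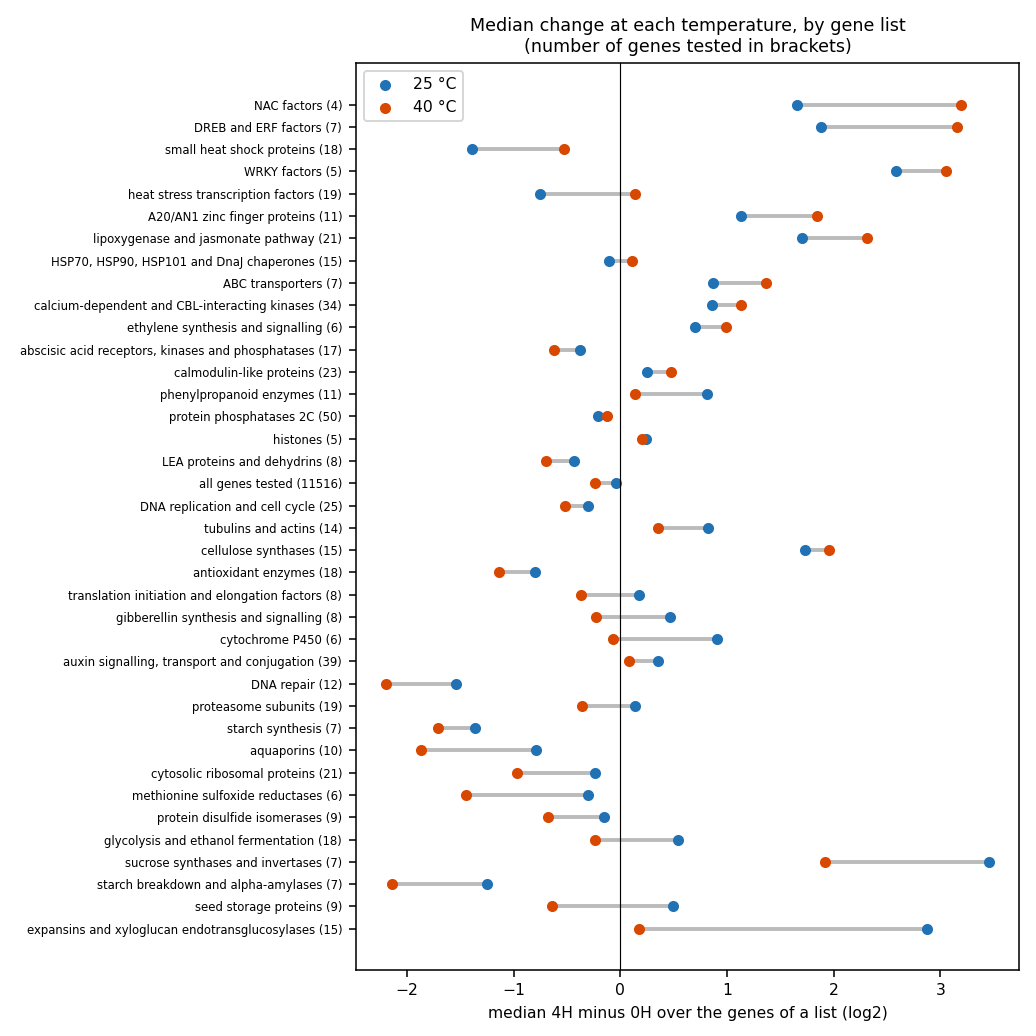
Median change from 0H to 4H (horizontal axis, log2) at 25 °C and 40 °C over the genes tested of each list with at least 4 genes (rows, ordered by the median interaction). The 40 °C point lies right of the 25 °C point for small heat shock proteins, heat stress factors, NAC and WRKY factors, and left of it for expansins, glycolysis, ribosomal proteins and methionine sulfoxide reductases.

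The combinations of calls are shown by their genes with the lowest p. Falling at both temperatures and further at 40 °C, SPO11-4, a relative of the meiotic DNA-cutting protein, read 7.27, 7.25 and 7.45 and then 6.79, 6.92 and 6.54 at 25 °C, and 7.27, 7.15 and 7.24 and then 4.05, 4.10 and 4.01 at 40 °C (interaction −2.59, SE 0.14, adjusted p = 1.96e-08). Rising at 25 °C and falling at 40 °C, the gene named pinA rose by 0.97 at 25 °C and fell by 1.45 at 40 °C (interaction −2.42). Falling at 25 °C and rising at 40 °C, XDH, a xanthine dehydrogenase of purine breakdown, fell by 1.07 at 25 °C and rose by 0.23 at 40 °C (interaction 1.30). Ehd3, a promoter of flowering, did not pass the test at 25 °C: it rose by 2.26 at 40 °C and differed by 0.17 at 25 °C, which was not called (interaction 2.08). SPL15, of the SBP-box transcription factors, fell by 1.30 at 40 °C and differed by −0.11 at 25 °C, which was not called (interaction −1.19), and its relative SPL9 fell by 1.18 at 25 °C and differed by −0.10 at 40 °C, which was not called (interaction 1.08). HTD2, the strigolactone receptor gene, rose less at 40 °C: it rose by 4.45 at 25 °C and by 2.15 at 40 °C (interaction −2.30). SSRP1-B, of a histone chaperone, fell by 1.61 at 25 °C and by 0.38 at 40 °C (interaction 1.23). PUB75, of the U-box ubiquitin ligases, rose by 3.17 at 25 °C and differed by 0.24 at 40 °C, which was not called (interaction −2.92). With values below log2 4 set to 4 the PUB75 interaction was −1.29. Low signals thus made up much of its difference, and it may have passed the filter through a single group. RFS fell by 2.69 at 25 °C and by 1.14 at 40 °C (interaction 1.56).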

How the data were processed

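Embryonic axes of rice seed were measured on 12 one-colour arrays, 1 per sample, in 4 groups of 3. The authors deposited log2 expression values, made with GCRMA per the submitters' processing notes, which corrects background and normalizes the arrays together; its version and settings are not given in the sources used here. Lowering of values near background by this step can widen log2 differences, so interactions were also computed with values below log2 4 set to 4. The genome build is not given in the sources used here, and no coordinates or sequences are printed.

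Control probe sets (123 of 57381) were left out. Probe sets were named through GEO's platform annotation and RefSeq gene tables: 22436 matched 1 gene, 95 several and 34850 none. Probe sets above log2 4 in at least 3 of 12 arrays were fitted by group in limma 3.58.1 (R 4.3.3) with empirical Bayes and a mean-variance trend, on 8 residual degrees of freedom, and the interaction and 4 simple comparisons were taken as contrasts. P-values were adjusted by Benjamini-Hochberg over all 17650 probe sets, and adjusted p under 0.05 was called. The script was tested on simulated data. Tables and figures used pandas 2.3.3, numpy 2.4.6 and matplotlib 3.10.9.

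The members and the 39 gene lists were chosen with earlier results of these data known. Genes named had 1 gene per probe set and a short symbol, which 2449 of 17905 annotated genes had. Genes without a short symbol were not ranked, though some had larger interactions. The 12 largest on each side also had a call, all 9 differences of 4H and 0H arrays at 40 °C beyond all 9 at 25 °C, and a size of at least 1 with low values set to 4; added to these were the 3 lowest p per combination of calls, the 4 lowest p per list, and members opposite to their list. Replicate numbers were not taken as a pairing, since the labels do not state one and 11, not all, of 18 same-numbered pairs of deviations correlated over 0.1 (−0.05 to 0.42). Alternatives were other filters, raised low values, quantile normalization, median centring, array weights, no variance trend, the replicate block, each array left out, and replicates 1 and 2 of 40 °C 0H left out together. The last of these leaves 1 array in that group.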

Additional observations from a re-analysis of the deposited data

Results flagged for a closer look

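The 24 genes ranked largest among genes with a short symbol that met the selection criteria are set apart here. In them the change from 0H to 4H differed between the 2 storage temperatures by the interaction test itself. NPR3 entered that test through 40 °C 4H alone, and others may also have entered through a single group. With values below log2 4 set to 4, OsTrx18, HSFA2D, KIN8B and CAD3 had interactions of 1.99, 2.04, 1.72 and −1.44. For such genes the call is not separate evidence of a difference. Over all 11516 genes tested, each by its probe set with the highest mean signal, interactions ran from −5.20 to 5.10. Above 0, the interactions on the log2 scale were NPR3 5.62, OsTrx18 4.29, HSFA2D 4.23, CML31 3.85, OsPP2C32 3.55, HSFA2C 3.42, KIN8B 3.35, FH16 3.31, NAC3 3.13, DREB1B 3.11, DREB1A 3.09 and DREB2B 3.01. Below 0 they were EXPA29 −3.85, WOX11 −3.77, CAD3 −3.44, YAB4 −3.37, EXPA2 −3.33, LYL1 −3.26, CYP85A1 −3.07, EXPA6 −3.06, SUS1 −3.04, PAL −3.03, CKX11 −3.03 and PSY1 −3.001. Values that changed by more than 1.5 times with low signals set to log2 4 stand beside each gene in the results, as does the second HSFA2C probe set of opposite sign. The other genes named with a called interaction meet the same criterion and are given there. Groups of 3 arrays are too small for a test of single outlying arrays.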

How the results depend on the processing

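The interaction counts ranged from 3442 to 5733 above 0 and from 4437 to 7204 below 0 over 21 alternatives, and the share of calls above 0 from 42.6% to 46.6%. Leaving out 1 array gave 4705 to 5178 above and 6120 to 6510 below 0, 13989 to 14445 calls at 25 °C, 15015 to 15535 at 40 °C and 12418 to 13267 between temperatures at 4H. Between temperatures at 0H it gave 2079 to 3847 calls against 3129, the lowest without replicate 2 of 40 °C 0H and 2080 without replicate 2 of 25 °C 0H; the cause was not tested. Of 36 comparisons of an array with another group, 24 correlated best at the array's own replicate number, a hint from the data and not the design. With that number as a block, the counts were 5116 above and 6618 below 0, 14597 at 25 °C, 15506 at 40 °C, 3498 at 0H and 13307 at 4H. The median interaction was −0.14 to 0.00 (−0.12 as reported), highest with no filter. Of 3839 results of 184 named genes under alternatives, 3781 kept direction and side of the threshold, 46 lost the call, 9 gained one and 3 turned sign. The 3 were FEN-1a at 0.41 and OsKO1 at 0.15 with values below log2 4 set to 4, and H2B.10 at 0.066 without replicate 1 of 25 °C 0H (−0.22 to 0.066 with 1 array left out). The 46 belong to 13 genes, 7 of them of the storage, starch synthesis and late embryogenesis abundant lists. List medians that changed sign were those of chaperones (over all probe sets), calmodulin-like proteins, gibberellin genes, histones, phenylpropanoid enzymes, protein phosphatases 2C and embryo markers. With low values set to 4, 11279 of the 11469 calls kept their sign. Of the 11469, 7557 had no array below log2 4, so their sign could not change in this way.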

Other observations

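Protein phosphatases 2C, among them negative regulators of abscisic acid signalling, were divided evenly. Of 56 matched genes 50 were tested, 18 were called above and 18 below 0, and the median was −0.06. Besides OsPP2C32, OsPP2C02 fell by 1.201 at 25 °C and rose by 0.21 at 40 °C (interaction 1.42), whereas PP2C51 fell by 0.34 at 25 °C and by 2.12 at 40 °C (interaction −1.79) and OsPP2C09 fell by 0.34 at 25 °C and by 1.47 at 40 °C (interaction −1.13). Genes of DNA replication and the cell cycle also lay on both sides, with 6 above and 9 below 0 of 25 tested (49 matched), or 5 below with the filter at log2 6. CDC2Os-1, a cyclin-dependent kinase, fell by 1.25 at 40 °C and differed by −0.02 at 25 °C, which was not called (interaction −1.23), and ORC2, of the origin recognition complex, fell by 0.30 at 25 °C and by 1.44 at 40 °C (interaction −1.14). The D-type cyclin gene CYCD5-3 rose by 1.28 at 40 °C and differed by 0.15 at 25 °C, which was not called (interaction 1.13), and RPA70A, a subunit of the single-strand binding protein, rose by 1.61 at 25 °C and by 2.55 at 40 °C (interaction 0.94).

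In the phenylpropanoid list 4 genes were called above and 4 below 0 of 11 tested (28 matched), among them HCT1, an acyltransferase of the lignin pathway, with an interaction of 0.78 and CAD1 with −1.81, beside PAL, which fell at 40 °C. Of 5 histone genes tested, all those matched, 1 was called below 0, H2B.6 with an interaction of −0.43, while without replicate 1 of 40 °C 4H none was called below and 1 above 0, and without replicate 3 of 25 °C 4H, or replicate 2 of 40 °C 4H, 2 were below. Of 6 cytochrome P450 genes tested, of 29 matched, 3 were called below 0, among them CYP71P1 with −0.59.

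Of the probe sets that the tables used here pair with no single gene, those that met the same criteria as the 24 named genes reached further below 0 than those 24. Annotated genes without a short symbol are not shown here. They are given as values with no test, since some passed the filter on low signals only through the group where they are high. The lowest had means of 1.35 and 6.82 at 25 °C 0H and 4H and 1.70 and 1.99 at 40 °C (interaction −5.17), or −2.82 with values below log2 4 set to 4. The next lowest had means of 2.72 and 9.07 at 25 °C 0H and 4H and 2.48 and 4.20 at 40 °C (interaction −4.63). Both were highest at 25 °C 4H. The highest above 0 had means of 1.19 and 1.77 at 25 °C 0H and 4H and 1.16 and 6.27 at 40 °C (interaction 4.53), or 2.27 with values below log2 4 set to 4. Its probe set name shares its stem with those of NPR3, so it may not be a separate observation. The next had means of 3.15 and 4.12 at 25 °C 0H and 4H and 2.86 and 8.07 at 40 °C (interaction 4.24). Both were highest at 40 °C 4H.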
